A study of Mus musculus with 18 samples.

Results

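The dystrophin-glycoprotein complex was followed through 8 of its genes, Dmd, Utrn, Dtna, Dag1, Sgca, Sgcb, Sgcd and Sntb1, chosen by name from the 46725 genes counted in these muscles. These genes held 272 of the 391858 exon bins, an exon bin being a stretch of exon between annotated exon ends. The 18 libraries came from 2 muscles, gastrocnemius and quadriceps, of 9 mice of the FVB background aged 20 weeks. WT mice were untreated FVB animals without a transgene (n = 3), HSA-LR mice carried the transgene and were labelled untreated (n = 3), and treated HSA-LR mice carried the same transgene and received Pip6a-PMO intravenously (n = 3). The HSA-LR transgene is a human skeletal actin gene with expanded CTG repeats in its 3' UTR, expressed in skeletal muscle fibers, so that the other cells of a muscle do not make the expanded RNA. Pip6a-PMO is an antisense morpholino against CUG repeats joined to a cell-penetrating peptide.

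The complex ties the actin cytoskeleton of a muscle fiber to the basal lamina outside it. Dystrophin (Dmd), or its autosomal relative utrophin (Utrn), binds actin inside the fiber and beta-dystroglycan at the membrane. Dystroglycan (Dag1) binds laminin, the sarcoglycans (among them Sgca, Sgcb and Sgcd) stabilize it in the membrane, and alpha-dystrobrevin (Dtna) and the syntrophins (among them Sntb1) form the cytoplasmic scaffold. Loss of dystrophin causes Duchenne muscular dystrophy, and loss of a sarcoglycan causes limb-girdle muscular dystrophies. In myotonic dystrophy, expanded CUG RNA binds MBNL splicing factors, and exons near the 3' end of Dmd and Dtna are known as alternative exons in muscle. Dmd exons 71 and 78 are shown here because they are known alternative exons of dystrophin and their use in each group is described below. The exon is in capitals and 12 bases of the neighbouring exons are in lower case, read 5' to 3' on the plus strand from the GRCm38 reference, not from the FVB mice. Exon 71 lies at chrX:85144911-85144949 and exon 78 at chrX:85197504-85197535, both coding, counted along the full-length muscle transcript Dmd-203.
Dmd exon 71: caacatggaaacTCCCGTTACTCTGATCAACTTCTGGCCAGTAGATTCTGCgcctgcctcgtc
Dmd exon 78: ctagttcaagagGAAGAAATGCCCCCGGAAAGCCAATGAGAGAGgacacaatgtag
Exon 71 has 39 bases, a multiple of 3, so that its loss keeps the reading frame. Exon 78 has 32 bases, which leaves a remainder of 2, so that its loss shifts the frame. With exon 78, the stop codon of Dmd-203 lies at bases 10 to 12 of exon 79, after 13 codons from the end of exon 77. Without it, the first stop in the shifted frame lies at bases 96 to 98 of exon 79, after 31 codons. Exon 71 was held by 2 of 3 annotated coding transcripts that span it and exon 78 by 3 of 3.

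The libraries held 98916844 to 143135976 counts, and 2.82% to 4.14% of them named no gene. The 5 markers of skeletal muscle fibers summed to at least 95329 CPM (counts scaled to the library size) in every library. A single library stood apart in its coverage along transcripts, since the median log2 ratio of 5' to 3' counts over 4263 genes was -1.64 in treated gastrocnemius mouse 3 and between -1.39 and -1.26 in the other 17. The labelled sex did not match the RNA in 2 WT mice. Mouse 2 was labelled female and had 153 and 188 summed CPM of Y-linked genes in the 2 muscles, whereas mouse 3 was labelled male and had 1.14 and 1.43. All HSA-LR and treated libraries had 134 to 188 summed CPM, so that WT mouse 3 alone was low among the 9 mice. By this RNA the sexes were thus not balanced between WT and the other groups. Its part in the levels of the members, among them the X-linked Dmd, was not tested. The groups below follow the labelled genotype.

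In WT muscle the members spanned more than 2 orders of magnitude. Levels are given in CPM, and between genes as CPM per kb of exon. In the gastrocnemius, Sgca stood at 153 ± 14.5 CPM per kb (SD, n = 3), Dag1 at 32.5 ± 4.72, Sgcb at 19.1 ± 1.91, Dmd at 3.43 ± 0.162, Utrn at 1.73 ± 0.0457, Sgcd at 0.70 ± 0.205 and Sntb1 at 0.54 ± 0.138. The order was the same in the quadriceps, from 146 ± 6.23 for Sgca to 0.42 ± 0.166 for Sntb1. By this measure Sgcd and Sntb1 did not differ beyond their spread in the gastrocnemius, whereas the other neighbours lay further apart than their SDs. The length of a gene took in all its annotated bins, also those almost without counts. In Sgcd, bin 8 held 4031 of 8257 bases and averaged 0.56 counts per library, and bin 1 held 1717 bases and averaged 0.61. Its value is thus too low for its expressed exons, and its place in the order is not shown. Sgca is raised by read pairs counted in more than 1 of its short bins. Dtna was left out of this order because the lengths of its bins were inferred. Since these are whole muscles, fewer cells of a type and less RNA per cell cannot be told apart.

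Genes were compared with edgeR's quasi-likelihood test over all genes of a muscle and called at an adjusted P under 0.1. Of the 8 genes, all tested, 3 were called in HSA-LR against WT mice in the gastrocnemius (Sntb1, Sgca and Sgcd, all higher), where 15.5% of 15625 genes were called. In the quadriceps 2 were called (Sntb1 and Sgca, both higher) against 20.3% of 15574 genes. In treated against untreated HSA-LR mice, Sntb1 and Dtna were lower in the gastrocnemius against a background of 10%, and Sntb1 was lower in the quadriceps against 13.8%. Between treated and WT mice no member was called in either muscle, where 1.04% of genes in the gastrocnemius and 1.41% in the quadriceps were. At an unadjusted P under 0.05, edgeR passed Sgca and Sntb1 in that comparison in the gastrocnemius and no member in the quadriceps, and DESeq2 called none in either. The 2 comparisons with HSA-LR mice share those libraries, so that a fall after treatment is not independent of a rise over WT.

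**Figure D1:**
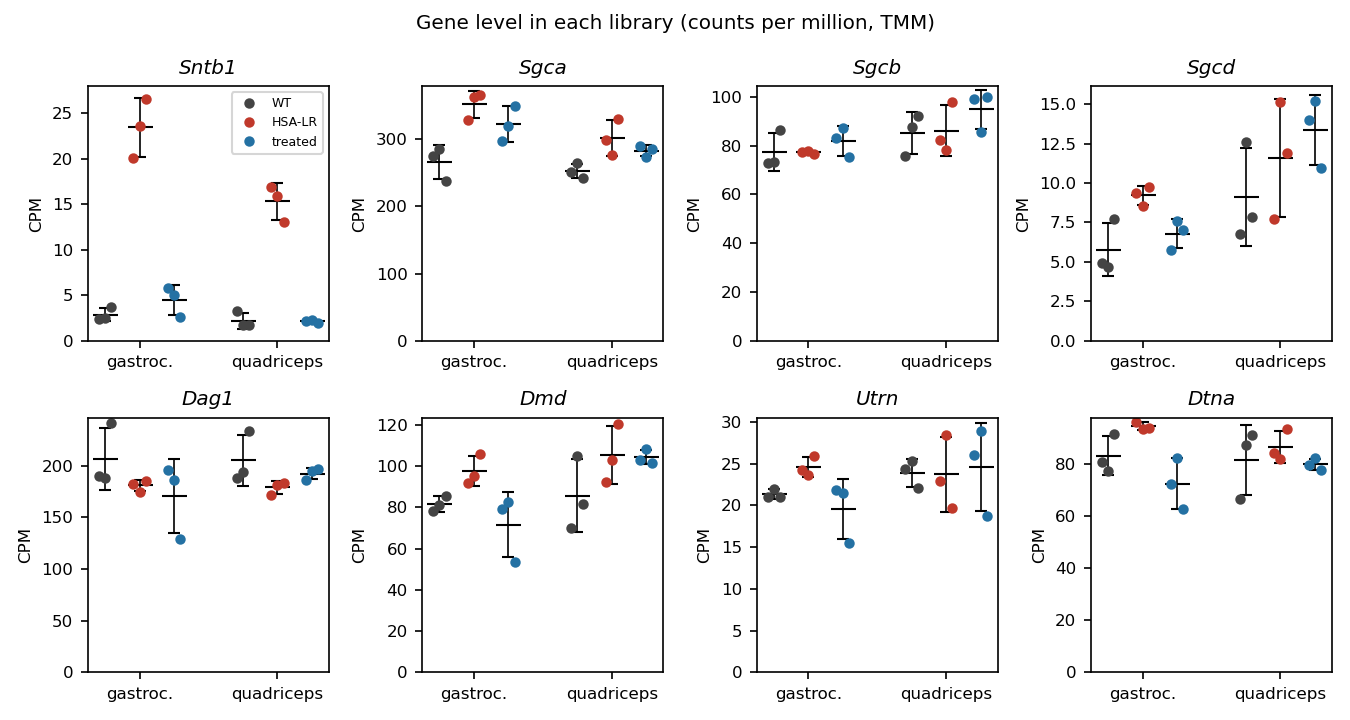
Level of each gene in each library, in CPM on axes that start at 0, for WT, untreated HSA-LR and treated HSA-LR mice in both muscles (points, 3 mice a group; bar and whiskers, mean and SD). The HSA-LR libraries of Sntb1 lie between 13.05 and 26.6 CPM and all WT and treated libraries at or below 5.81 CPM.

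**Figure D2:**
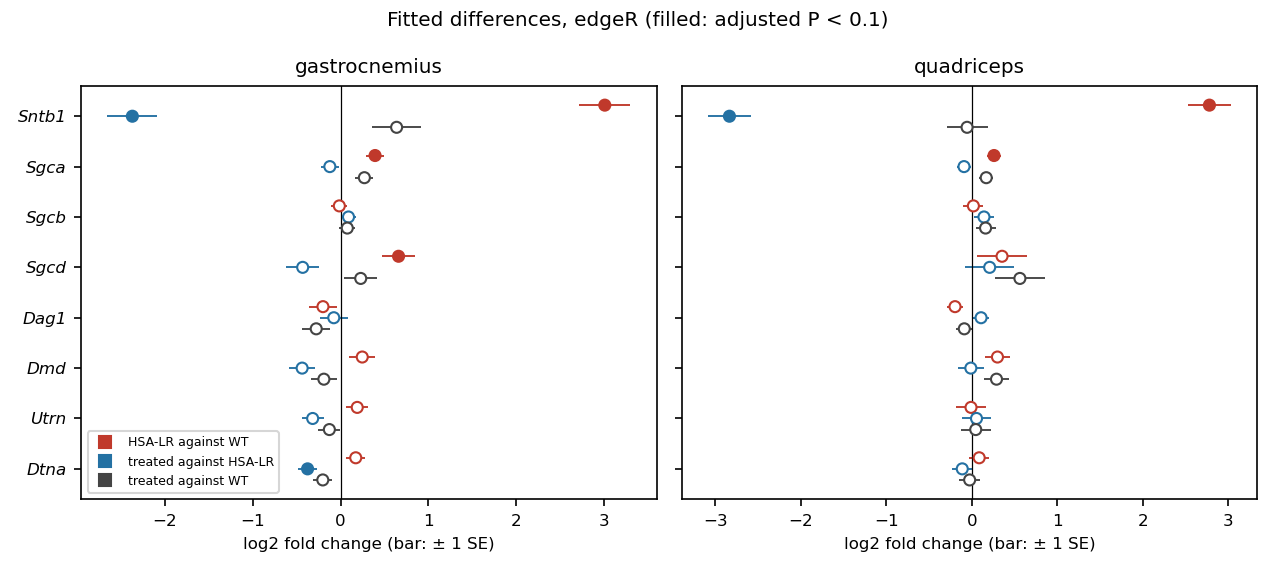
Fitted log2 fold changes (edgeR) of the 8 genes in the 3 comparisons of each muscle, with bars of 1 SE and filled symbols for an adjusted P under 0.1. Sntb1 is the gene farthest from 0, at 3.01 in the gastrocnemius and 2.78 in the quadriceps for HSA-LR against WT mice.

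Sntb1 encodes beta-1-syntrophin, an adaptor that binds dystrophin and dystrobrevin and brings signalling proteins to the membrane (chr15:55636388-55906949, GRCm38). In the gastrocnemius its level was 2.39, 2.52 and 3.73 CPM in the 3 WT mice, 20.0, 23.6 and 26.6 CPM in the HSA-LR mice and 5.81, 4.99 and 2.66 CPM in the treated mice. The HSA-LR libraries were all above every other library, and 2 of the 3 treated libraries were above all WT libraries. In the quadriceps it was 3.25, 1.73 and 1.71 CPM in WT mice, 16.9, 15.95 and 13.05 CPM in HSA-LR mice and 2.14, 2.33 and 1.93 CPM in treated mice, and the treated libraries lay within the WT range. Sntb1 was therefore 8.06-fold higher in HSA-LR than in WT gastrocnemius (log2 FC 3.01 ± 0.29 SE, edgeR adjusted P = 0.00045) and 6.87-fold higher in the quadriceps (2.78 ± 0.25, adjusted P = 0.00033). After treatment it fell by 2.37 ± 0.28 on the log2 scale in the gastrocnemius (adjusted P = 0.0035) and by 2.83 ± 0.25 in the quadriceps (adjusted P = 0.0011). Treated mice differed from WT mice by a log2 FC of 0.64 ± 0.28 in the gastrocnemius (adjusted P = 0.46) and of -0.06 ± 0.24 in the quadriceps (adjusted P = 0.95), neither past the threshold.

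The rise of Sntb1 ran along the whole gene. Of its 11 bins, 9 held more than a few counts, and in each of these the HSA-LR libraries lay above the WT libraries in both muscles. The ratio of group means was 6.11 to 9.84 in the gastrocnemius and 6.16 to 7.79 in the quadriceps. Bins 6 and 7 held at most 5 counts over the 3 libraries of a group. No Sntb1 bin was called against the rest of the gene in any comparison.

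The sarcoglycans differed among themselves. Sgca encodes alpha-sarcoglycan (chr11:94962791-94976327). In the gastrocnemius its level was 275, 285 and 237 CPM in WT mice, 329, 362 and 365 CPM in HSA-LR mice and 296, 319 and 350 CPM in treated mice. The WT libraries were below all others, and the treated libraries overlapped the HSA-LR libraries. Sgca was 1.31-fold higher in HSA-LR than in WT mice (log2 FC 0.39 ± 0.10, edgeR adjusted P = 0.041), a call that was lost without HSA-LR mouse 2 (adjusted P = 0.141) or mouse 3 (adjusted P = 0.145). In the quadriceps it was 251, 264 and 243 CPM in WT mice, 299, 277 and 330 CPM in HSA-LR mice and 289, 273 and 286 CPM in treated mice, with the WT libraries again lowest. The difference there was 1.20-fold (0.26 ± 0.08, adjusted P = 0.071), and leaving out any of 6 of the 9 libraries took its adjusted P above 0.1 (0.101 to 0.182). The change on treatment was -0.12 ± 0.10 in the gastrocnemius and -0.09 ± 0.08 in the quadriceps, and neither passed the test (adjusted P = 0.52 and 0.51).

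Sgcd encodes delta-sarcoglycan, which is made in striated and in smooth muscle (chr11:46896253-47988969). In the gastrocnemius it stood at 4.96, 4.66 and 7.73 CPM in WT mice, 9.35, 8.56 and 9.75 CPM in HSA-LR mice and 5.79, 7.57 and 7.05 CPM in treated mice. The HSA-LR libraries were above all others, while WT and treated libraries overlapped. The difference between HSA-LR and WT mice was 1.58-fold (0.66 ± 0.19, adjusted P = 0.059), and it missed the threshold when WT mouse 1 or 2 or any HSA-LR mouse was left out (adjusted P = 0.117 to 0.176). The change on treatment was -0.43 ± 0.19 and did not pass (adjusted P = 0.22). In the quadriceps the groups overlapped, with 6.80, 12.6 and 7.87 CPM in WT mice, 7.70, 15.1 and 11.9 CPM in HSA-LR mice and 14.01, 15.2 and 10.9 CPM in treated mice, and no comparison was called. Of 4 markers of smooth muscle and pericytes, 2 were lower in HSA-LR than in WT gastrocnemius and none was higher, and their part in the level of Sgcd was not tested.

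Sgcb encodes beta-sarcoglycan (chr5:73632749-73647790). Its log2 FC between HSA-LR and WT mice was -0.01 ± 0.09 in the gastrocnemius and 0.02 ± 0.12 in the quadriceps (adjusted P = 0.95 in both). All 18 libraries lay between 72.7 and 99.8 CPM and the groups overlapped in both muscles. Of the bins of Sgca, Sgcb and Sgcd, none was called against its gene.

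Dag1 encodes the precursor that is cut into alpha- and beta-dystroglycan (chr9:108204634-108263958). In the gastrocnemius it stood at 190, 188 and 241 CPM in WT mice, 183, 175 and 185 CPM in HSA-LR mice and 196, 186 and 129 CPM in treated mice. The HSA-LR libraries were below all WT libraries, by a log2 FC of -0.20 ± 0.16 that did not pass (adjusted P = 0.48), and the lowest library was treated mouse 3, the one that stood apart in coverage. In the quadriceps the difference was again -0.20 ± 0.09 (adjusted P = 0.21), and no comparison of Dag1 was called. Bins 13 to 16, which lie in alternative first exons of Dag1, held 0.99 ± 0.10% of its counts in WT gastrocnemius, 0.65 ± 0.05% in HSA-LR and 0.97 ± 0.15% in treated gastrocnemius, without overlap between HSA-LR and the other groups. In the quadriceps the shares were 0.99 ± 0.17%, 0.83 ± 0.12% and 1.28 ± 0.12%, and WT and HSA-LR mice overlapped. None of these bins was called, and exact permutation tests over 3 against 3 mice cannot go below P = 0.1. This block lay outside the rule by which bins were named, and other alternative bins of Dag1 were not summed. How many such blocks of other genes lack overlap was not counted, so that the shares are a description only.

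The exon bins were tested with edgeR against the change of their gene, with the call at an adjusted P under 0.1 over all bins. In HSA-LR against WT gastrocnemius, 3 of 190 member bins that passed the filter on low counts were called, where 0.819% of 172719 bins were. These were Dtna bin 22, lower, and Dmd bins 58 and 59, higher. In treated against untreated HSA-LR gastrocnemius 1 of 190 was called, Dtna bin 22, higher, against a background of 0.309%, and in treated against WT gastrocnemius none was, against 0.0654%. In the quadriceps none of 214 member bins was called in HSA-LR against WT mice (background 0.284% of 172858 bins), in treated against untreated HSA-LR mice (0.168%) or in treated against WT mice (0.0353%). Limma's voom and diffSplice, run as another tool, called Dtna bins 17 and 22 in the quadriceps in both of the first 2 comparisons.

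Dtna encodes alpha-dystrobrevin, whose alternative 3' ends give proteins that differ in their C-terminal part, the longest with a tail that is phosphorylated on tyrosine (chr18:23415135-23659715). The deposited model has 22 bins, taken in order as the 21 exons of transcript Dtna-202 with 1 more terminal exon, bin 12, of the shorter Dtna-201. This order was inferred, and the log2 ratios of counts between bins followed those of the exon lengths (Pearson r = 0.898 over 14 bins). Bins 12 and 22 did not enter this correlation, also not as neighbours, so that it cannot bear on what these 2 bins are. In the inferred order, bins 13 to 16 are coding exons shared by 3 annotated coding transcripts, bins 17 to 20 by 2, and bin 22 is the long last exon with the 3' UTR.

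Bin 22 held 21.5%, 20.4% and 18.4% of the Dtna counts in WT gastrocnemius, 10.6%, 10.1% and 11.9% in HSA-LR gastrocnemius and 17.7%, 20.0% and 17.9% in treated gastrocnemius. In the quadriceps the shares were 22.6%, 19.2% and 21.2% in WT mice, 12.1%, 12.1% and 13.4% in HSA-LR mice and 19.8%, 19.04% and 18.99% in treated mice. In both muscles every HSA-LR library was below every other library, and treated and WT libraries overlapped. Against its gene, bin 22 changed by a log2 value of -0.88 in HSA-LR relative to WT gastrocnemius (edgeR adjusted P = 0.0027) and 0.77 in treated against untreated HSA-LR gastrocnemius (adjusted P = 0.039). In the quadriceps it was -0.73 and 0.62, with the same signs, and did not pass (adjusted P = 0.25 and 1). The first call was lost without HSA-LR mouse 2 (-0.83, adjusted P = 0.112). The second was lost without HSA-LR mouse 1, 2 or 3 or treated mouse 2 (0.71 to 0.84, adjusted P = 0.156 to 0.636). With the coverage of the library as a covariate the changes in the gastrocnemius were -0.89 and 0.81, both called. An exact permutation test of the share gave P = 0.1 in each muscle and in both of these comparisons, the smallest it can give with 3 against 3 mice.

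The bins just before the last exon moved with it. Relative to its gene, bin 17 changed by -0.54 and -0.79 between HSA-LR and WT mice in the gastrocnemius and quadriceps, and bin 21 by -0.57 and -0.61, with unadjusted P from 0.00139 to 0.025 for these 2 Dtna bins and none called. The counts of bins 17 to 21 relative to bins 13 to 16, a ratio chosen after the values were seen, were 51.1%, 56.2% and 36.5% in WT gastrocnemius, 30.3%, 24.4% and 33.5% in HSA-LR gastrocnemius and 53.2%, 62.6% and 47.5% in treated gastrocnemius. In the quadriceps they were 53.7%, 49.8% and 47.6%, then 24.1%, 29.4% and 30.5%, then 57.1%, 56.8% and 40.8% in the same order of groups. By this ratio the HSA-LR libraries were again below all others in both muscles. As a share of the gene, bins 17 to 21 overlapped between WT (5.99 ± 1.54%) and HSA-LR gastrocnemius (4.06 ± 0.40%). In the quadriceps that share did not overlap (6.35 ± 0.25% and 4.15 ± 0.35%). Bins 13 to 16, the base of the ratio, held 12.4 ± 0.94% of the gene in WT and 13.9 ± 0.84% in HSA-LR gastrocnemius, with overlap. In the quadriceps they held 12.6 ± 0.40% and 14.9 ± 0.63%, without overlap. Treated mice, at 11.1 ± 0.74% and 12.3 ± 0.95% in the 2 muscles, did not overlap with HSA-LR mice. The ratio thus also carries a change of its base.

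The 5' part and the last exon of Dtna went opposite ways in level. The summed level of bins 1 to 16 was 57.9, 56.3 and 70.98 CPM in WT gastrocnemius, 82.1, 80.7 and 78.7 CPM in HSA-LR gastrocnemius and 55.7, 60.2 and 47.9 CPM in treated gastrocnemius. Bin 22 alone was at 17.4, 15.8 and 16.8 CPM, then 10.2, 9.49 and 11.2 CPM, then 12.8, 16.5 and 11.3 CPM. Thus the HSA-LR libraries were the highest for the 5' part and the lowest for the last exon, without overlap in either. For the last exon the margin to the treated libraries was slight. The highest HSA-LR library was at 11.24 CPM, and treated mouse 3, with the uneven coverage, was at 11.25 CPM. Before scaling, the counts of bin 22 overlapped, with 1237 to 1331 in HSA-LR and 1093 to 2050 in treated gastrocnemius. In the quadriceps bins 1 to 16 stood at 59.5 ± 10.8 CPM in WT, 72.2 ± 4.29 CPM in HSA-LR and 59.5 ± 1.52 CPM in treated mice, and bin 22 at 17.04 ± 2.16, 10.9 ± 1.46 and 15.4 ± 0.522 CPM. Bin 12, the other terminal exon, held 1.99 ± 0.52%, 2.10 ± 0.23% and 2.51 ± 0.56% of the gene in the gastrocnemius, with overlap between the groups.

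**Figure D3:**
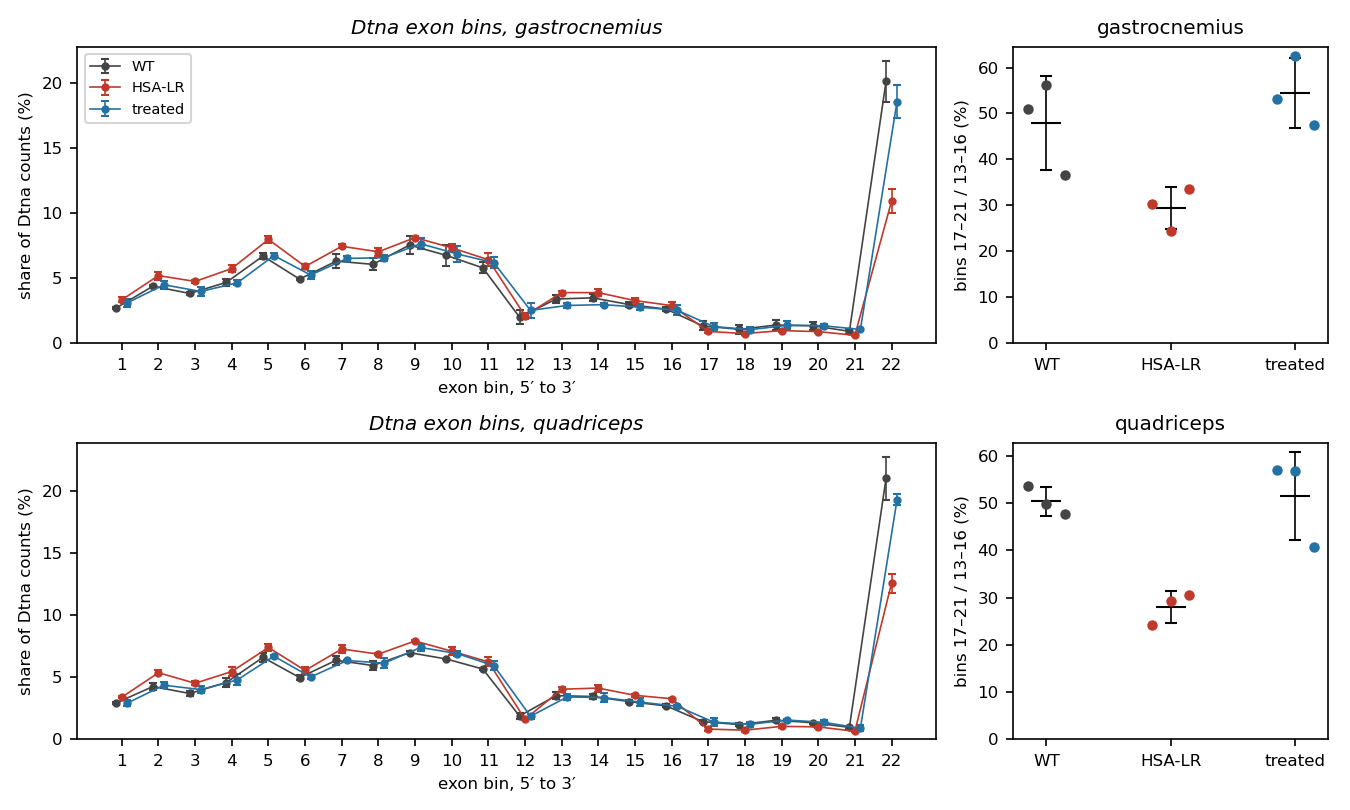
Left, the share of Dtna counts in each of its 22 exon bins from 5' to 3' (mean and SD, 3 mice a group), with bin 22, the last exon, at 10.9% in HSA-LR and 20.1% in WT gastrocnemius. Right, the counts of bins 17 to 21 as a percentage of those of bins 13 to 16 in each library, with mean and SD, where the HSA-LR points (24.1% to 33.5%) lie below the others.

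As a gene sum, Dtna differed little between HSA-LR and WT mice, by a log2 FC of 0.17 ± 0.11 in the gastrocnemius (adjusted P = 0.36) and 0.09 ± 0.12 in the quadriceps (adjusted P = 0.70). On treatment it fell by 0.38 ± 0.11 in the gastrocnemius (adjusted P = 0.079). That call was lost in 7 of the 9 fits that left out a library, and with the largest bin, which is bin 22, in place of the sum it turned to 0.34.

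Dmd spans more than 2 Mb of the X chromosome (chrX:82948870-85206141). In the gastrocnemius it stood at 78.03, 81.0 and 85.7 CPM in WT mice, 91.8, 95.0 and 106 CPM in HSA-LR mice and 79.1, 82.4 and 53.4 CPM in treated mice. HSA-LR libraries were above all others, with log2 FC of 0.25 ± 0.15 against WT mice (adjusted P = 0.35) and -0.44 ± 0.15 for treated against untreated HSA-LR mice (adjusted P = 0.13), which did not pass. The first was called when treated mouse 3, the library with the uneven coverage, was left out (0.26, adjusted P = 0.047). In the quadriceps Dmd stood at 70.1, 105.1 and 81.7 CPM in WT mice, 92.3, 103 and 120 CPM in HSA-LR mice and 103, 108 and 101.7 CPM in treated mice, and WT and HSA-LR libraries overlapped (0.30 ± 0.15, adjusted P = 0.23).

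Exons 71 and 78 of Dmd, printed above, were not called against the gene in any comparison of the groups. Exon 71 held 1.78 ± 0.19% of the Dmd counts in WT gastrocnemius, 1.85 ± 0.06% in HSA-LR and 1.70 ± 0.29% in treated gastrocnemius, and its change against the gene was 0.04 between HSA-LR and WT mice (unadjusted P = 0.84). Counts per base of exon 71 relative to its neighbours were 174% to 205% over all 18 libraries, and 191.8 ± 3.36% in HSA-LR against 197.5 ± 6.92% in WT gastrocnemius. The difference of -5.75 percentage points gave an exact permutation P of 0.3. For exon 78, this ratio was 127.7 ± 3.61% in WT, 125.8 ± 3.77% in HSA-LR and 128.5 ± 2.85% in treated gastrocnemius, a difference of -1.87 percentage points between HSA-LR and WT mice (exact permutation P = 0.5). In the quadriceps it was 127.3 ± 3.67%, 132.5 ± 2.59% and 127.2 ± 4.77%. The share of exon 78 in the gene gave no overlap between HSA-LR (2.16 ± 0.16%) and WT gastrocnemius (2.40 ± 0.09%), and the opposite order, with overlap, in the quadriceps (2.49 ± 0.26% and 2.21 ± 0.17%). It also gave no overlap between treated (2.05 ± 0.11%) and untreated HSA-LR quadriceps. In both cases the exact permutation P was 0.1, the smallest possible, and the ratio to the neighbouring exons overlapped.

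Dmd bins 58 and 59 are exons 47 and 48 (chrX:84312477-84312626 and chrX:84373383-84373547), coding exons of the central rod that are not annotated as alternative. Exon 47 held 0.305%, 0.248% and 0.121% of the Dmd counts in WT gastrocnemius, 0.369%, 0.444% and 0.638% in HSA-LR gastrocnemius and 0.163%, 0.410% and 0.347% in treated gastrocnemius. Exon 48 held 0.326%, 0.345% and 0.137% in WT, 0.553%, 0.509% and 0.630% in HSA-LR and 0.230%, 0.557% and 0.366% in treated gastrocnemius. WT and HSA-LR libraries did not overlap for either exon. The changes against the gene were 1.15 (adjusted P = 0.048) and 1.096 (adjusted P = 0.045). Exon 47 was no longer called without WT mouse 2 or 3 or HSA-LR mouse 2 or 3, and exon 48 without WT mouse 1 or 3 or any HSA-LR mouse, and limma's voom called neither. The smallest changes were 0.83 and 0.75, without WT mouse 3. In the quadriceps the groups overlapped and the changes were -0.10 and -0.22. These exons rest on about 50 counts per library, 48.6 and 54.1 on average over the 18 libraries.

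**Figure D4:**
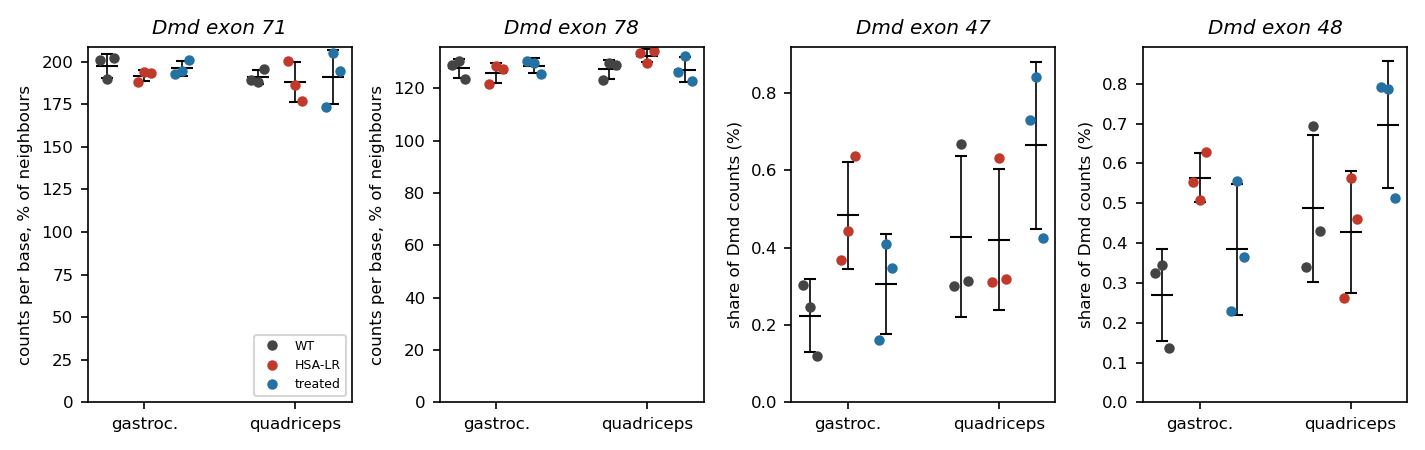
From left, counts per base of Dmd exons 71 and 78 as a percentage of the neighbouring exons, and the share of Dmd counts in exons 47 and 48, in each library (points) with mean and SD of 3 mice. Exons 71 and 78 overlap between groups, and exons 47 and 48 are higher in HSA-LR than in WT gastrocnemius but not in the quadriceps.

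Many exons of Dmd leaned the same way as exons 47 and 48. Of 72 Dmd bins tested in the gastrocnemius, 54 were higher relative to the gene in HSA-LR than in WT mice and 22 had an unadjusted P under 0.05, as had 6712 of the 172719 bins of all genes. In the quadriceps 40 of 86 were higher and none had such a P, against 2794 of 172858 bins of all genes. The share of higher bins over all bins tested was not counted. Of the 1414 bins called over all genes in HSA-LR against WT gastrocnemius, 1021 were higher. Each bin was tested against its gene, so that the bins of Dmd are not independent of each other. The last exon, which holds the 3' UTR, accounted for 42.3 ± 2.23% of the Dmd counts in WT, 35.3 ± 0.975% in HSA-LR and 42.8 ± 4.03% in treated gastrocnemius. In the quadriceps it accounted for 38.5 ± 5.20%, 38.5 ± 6.25% and 32.5 ± 3.4%. The index of 5' to 3' coverage of the libraries was -1.32 to -1.31 in HSA-LR gastrocnemius and -1.38 to -1.32 in WT gastrocnemius. Its part in the shares of Dmd was not tested beyond the covariate, with which exons 47 and 48 changed by 1.17 and 1.05. The first exon of Dp71, a short dystrophin made mainly in tissues other than muscle, held 0 to 11 counts per library.

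Utrn, the autosomal homologue of Dmd (chr10:12382188-12869365), was not called in any comparison. In the gastrocnemius it stood at 21.04, 22.01 and 21.03 CPM in WT mice, 24.2, 23.6 and 25.9 CPM in HSA-LR mice and 21.8, 21.5 and 15.5 CPM in treated mice. The HSA-LR libraries were above all others, with log2 FC of 0.19 ± 0.13 against WT mice (adjusted P = 0.39) and -0.32 ± 0.13 on treatment (adjusted P = 0.18). As for Dmd, the first was called without treated mouse 3 (0.20, adjusted P = 0.065). In the quadriceps it stood at 24.4, 25.3 and 22.04 CPM in WT mice, 22.9, 28.5 and 19.7 CPM in HSA-LR mice and 26.1, 28.9 and 18.7 CPM in treated mice, and all groups overlapped. The last exon of Utrn held 29.7 ± 1.92%, 25.6 ± 0.695% and 32.6 ± 5.72% of its counts in WT, HSA-LR and treated gastrocnemius, and 27.4 ± 4.55%, 27.8 ± 4.04% and 22.6 ± 3.66% in the quadriceps, an order of the groups like that of Dmd.

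**Figure D5:**
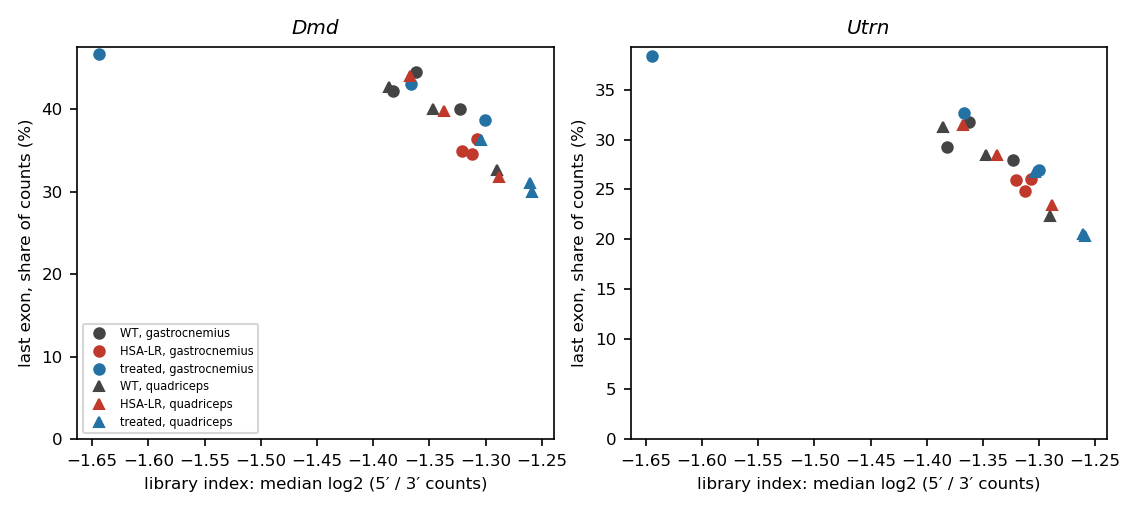
Share of the counts of Dmd (left) and Utrn (right) in the last exon of the gene against the coverage index of the library, the median log2 ratio of 5' to 3' counts over 4263 genes, for all 18 libraries. Libraries with a lower index have a larger share in the last exon of both genes, and the lowest index, -1.64, belongs to treated gastrocnemius mouse 3.

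The muscles were compared in 1 fit of the 18 libraries, without a term for the mouse. No member was called between quadriceps and gastrocnemius of WT mice, where 0.297% of 16167 genes were, and Sgcd had the smallest P (log2 FC 0.65 ± 0.26, unadjusted P = 0.024, adjusted P = 0.45). No gene of the 16167 was called in edgeR for a difference between the muscles in the HSA-LR effect (0.0%, with 710 genes at an unadjusted P under 0.05) or in the treatment effect (0.0%, with 1271). For Sntb1 the HSA-LR effect in the quadriceps minus that in the gastrocnemius was -0.25 ± 0.39 and the treatment effect -0.46 ± 0.39. The treatment effect on Dmd was 0.43 ± 0.22 higher in the quadriceps (adjusted P = 0.64). Of 217 member bins none was called for the muscles in WT mice, for the HSA-LR effect or for the treatment effect, where 0.0432%, 0.0166% and 0.0155% of 180522 bins were. The smaller number of calls among quadriceps bins is thus not shown to be a difference between the muscles.

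The other genes of the complex and of its partners were read from lists of 5 kinds, beside 15.5% of all genes called in HSA-LR against WT gastrocnemius and 20.3% in the quadriceps, and 10% and 13.8% on treatment. Of the other subunits, 3 of 8 tested were higher in HSA-LR than in WT mice in both muscles and none was lower. They included Sspn, sarcospan (0.59 and 0.56 in gastrocnemius and quadriceps). The list had a median log2 FC of 0.33 in the gastrocnemius and 0.40 in the quadriceps, against -0.01 and 0.01 over all genes. On treatment 2 of 8 were lower in the gastrocnemius and 1 of 8 in the quadriceps. In treated against WT mice 1 of 8 was still higher in each muscle, beside 1.04% and 1.41% of all genes. In the quadriceps this was Sspn (0.43, edgeR adjusted P = 0.074).

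Of 9 extracellular ligands, 2 were higher in the gastrocnemius, and 2 were higher and 1 lower in the quadriceps, against 15.5% and 20.3% of all genes. Lama2, the laminin alpha-2 chain, rose in both (0.61 and 0.77), Lamc1 rose in the gastrocnemius (0.43), and Bgn, biglycan, rose (0.84) while Lama5 fell by 0.48 in the quadriceps. The medians of the list were 0.05 and -0.09. Of 13 genes that glycosylate alpha-dystroglycan, 1 was higher and 1 lower in the gastrocnemius and 2 were higher and 1 lower in the quadriceps, against the same background, with medians of -0.08 and -0.03. These shares of the ligands and glycosylation genes are not read as a result about the lists. Pomk, the kinase of the O-mannosyl glycan, fell by 0.97 and 0.60. On treatment 3 of the 9 ligands were lower in the gastrocnemius and 1 in the quadriceps, while 1 of the 13 glycosylation genes was higher in the gastrocnemius and 1 lower in the quadriceps. No gene of these lists was called in treated against WT mice, where 1.04% and 1.41% of all genes were.

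Of 8 intracellular linkers tested, 4 were higher and none lower in both muscles, against 15.5% and 20.3% of all genes, with medians of 0.24 and 0.43. These were Sync, syncoilin, which binds dystrobrevin (0.43 and 0.80), Cav3, caveolin-3 (0.53 and 0.64), Ank3, ankyrin-G (0.93 and 0.75), and Krt8, keratin 8 (2.03 and 4.07), which was low, at 0.26 and 0.08 CPM in WT mice. Of 7 other adhesion and repair genes, 3 were higher in both muscles and 1 was lower in the quadriceps, with medians of 0.24 and -0.02. Itgb1, integrin beta-1 (0.71 and 0.74), Vcl, vinculin (0.62 and 0.48), and Dysf, dysferlin (0.28 and 0.31), rose, and Itga7, integrin alpha-7, fell by 0.47 in the quadriceps. On treatment 2 of the 8 linkers were lower in the gastrocnemius and 1 in the quadriceps, and 1 of the 7 adhesion genes, Itgb1, was lower in each muscle. In treated against WT mice 1 of the 8 linkers was higher in the quadriceps and none was called in the gastrocnemius. No adhesion gene was called in either muscle, beside 1.04% and 1.41% of all genes.

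Markers of the cell types of muscle were called in both muscles. In the quadriceps, 5 of 6 macrophage markers were higher in HSA-LR than in WT mice (73.5 to 95.9 summed CPM against 40.6 to 56.9), 2 of 3 satellite cell markers were higher, 4 of 6 endothelial, 4 of 4 smooth muscle and pericyte and 3 of 4 Schwann cell markers were lower, and 1 of 3 fibroblast markers was higher. In the gastrocnemius 2 of 4 smooth muscle markers were lower, and 1 of 6 macrophage and 1 of 3 satellite cell markers were higher. Of 5 fiber markers 1 was higher in the gastrocnemius, and 1 was higher and 1 lower in the quadriceps. The lists of slow fiber, adipocyte and erythroid markers held no call in HSA-LR against WT mice. On treatment, 5 of 6 macrophage markers were lower in the quadriceps (median log2 FC -0.89, 38.3 to 55.7 summed CPM in treated mice) and 2 of 6 in the gastrocnemius. Also on treatment, 5 of 7 slow fiber, 2 of 4 Schwann cell, 1 of 4 smooth muscle and 1 of 5 fiber markers were higher and 1 of 3 fibroblast markers was lower in the quadriceps, and 2 of 5 fiber markers were higher and 1 lower in the gastrocnemius. No list had a marker at 0 in any group. The part of these cells in the levels of the members was not tested.

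Across the 18 libraries, the genes most like Dmd in log2 CPM were Med14 (Pearson r = 0.934), Hivep1 (0.914) and Pde7b (0.912). Those most like Utrn were Prex2 (0.913), Soga1 (0.872) and Arhgap5 (0.868), and those most like Dtna were Lpp (0.871), 1200007C13Rik (0.870) and Tet2 (0.868). These are descriptions over 16166 genes in libraries that share mice, depth and coverage.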

How the data were processed

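For every library the authors deposited whole-number counts per exon bin, made from read pairs and neither normalized nor pooled. The libraries were polyA-selected and stranded. The processing notes name CASAVA, HISAT and featureCounts 1.5.0 without their roles, and a read pair over more than 1 bin was counted in all of them, which adds to the sums of genes with short bins. Entries naming no gene were left out. Symbols and positions came from GENCODE M21 on GRCm38. The model of Dtna in the files has fewer bins than M21, and its positions were inferred. The bins of Utrn were taken as the exons of Utrn-201, of another version of the gene.

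Tests used R 4.3.3, edgeR 4.0.16, limma 3.58.1 and DESeq2 1.42.0, run beside Python 3.11.15 (numpy 2.4.6, matplotlib 3.10.9, pandas 2.3.3). Gene sums passed filterByExpr (minimum count 10, minimum total 15), were scaled by TMM and were tested with glmQLFTest in 1 fit per muscle (9 libraries). Bins that passed the same filter were tested with diffSpliceDGE. P values were adjusted by Benjamini-Hochberg over all genes or bins tested and called under 0.1. CPM used TMM library sizes. Exact permutation tests of shares were two-sided. The edgeR P values rest on a spread estimated over all 9 libraries of a muscle, so that the group not compared also sets it. The exact permutation tests use only the 3 mice of each group compared. The fit of 18 libraries had no term for the mouse and took the 2 muscles of a mouse as independent. The scripts were tested on simulated data.

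Named were all 8 members, their called bins and the annotated alternative exons near the 3' ends of Dmd and Dtna, the called genes of each pathway list (at most 4, by smallest P), and the 3 genes most alike to Dmd, Utrn and Dtna (log2 CPM, prior count 2). Dmd exon 78 was added as a known alternative exon that the annotation does not mark as one. Dtna bins 17 to 20 and Dag1 bins 13 to 16 were shown outside this rule. Some called genes of the pathway lists are counted but not reported here by name. The members, lists and comparisons were chosen with earlier results of these data known. The 2 muscles with the same number are from 1 mouse, and in these pairs the residuals about the group mean had a median r of 0.215 (0.064 to 0.511, 9 pairs), against -0.09 for different mice. Alternatives were DESeq2, RLE scaling, other filters, the 2 groups alone, the replicate block, a coverage covariate, the largest bin of a gene, limma's voom and each library left out.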

Additional observations from a re-analysis of the deposited data

How the results depend on the processing

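The rise of Sntb1 in HSA-LR mice and its fall on treatment were called in both muscles under every alternative run, and with a library left out the log2 FC were 2.89 to 3.24 and -2.61 to -2.12 in the gastrocnemius and 2.62 to 3.15 and -2.93 to -2.76 in the quadriceps. Of 88 gene and bin results, 24 changed sign under some alternative, and 1 of these, the gene sum of Dtna on treatment in the gastrocnemius, had been called. Counts of called genes moved as follows. In HSA-LR against WT gastrocnemius the count was 3, 5 in a fit of the 2 groups (adding Dmd and Utrn) and 1 to 5 with a library left out. In treated against untreated HSA-LR gastrocnemius it was 2, 1 with the coverage covariate, the 2 groups or the replicate block, and 1 to 3 with a library left out. In HSA-LR against WT quadriceps it was 2, 1 with the coverage covariate, no filter, the 2 groups or the replicate block, and 1 to 3 with a library left out. In treated against untreated HSA-LR quadriceps it was 1, and 2 with the largest bin. Counts of called bins were 3 in HSA-LR against WT gastrocnemius, 5 with the 2 groups and 0 to 4 with a library left out, and 1 on treatment in the gastrocnemius, 3 with limma's voom and 0 to 3 with a library left out. In the quadriceps voom called 2 bins in HSA-LR against WT mice and 2 on treatment, where edgeR called 0, and without WT mouse 2 the treated against WT comparison had 1 called bin (0 to 1 with a library left out). The log2 ratio of Dmd exon 78 between HSA-LR and WT gastrocnemius was -0.02 relative to its neighbours.

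With the largest bin in place of the sum, signs turned for Dtna (-0.66 and -0.63 in HSA-LR against WT gastrocnemius and quadriceps, 0.34 and 0.52 on treatment), because that bin is its last exon, and for Dmd (-0.01, gastrocnemius), Utrn (0.01, -0.24 and -0.23 in the 3 quadriceps comparisons) and Sgcb (-0.08, quadriceps). With the coverage covariate they turned for Dag1 (0.11 on treatment, gastrocnemius) and in the quadriceps for Utrn (-0.16 on treatment, -0.22 against WT), Sgcd (-0.34 and -0.09), Sntb1 (0.25, treated against WT) and Dmd exon 47 (-0.09 on treatment). Dmd exon 71 in HSA-LR against WT gastrocnemius was at 0.0 with the covariate and -0.15 with voom. The cause of these changes was not tested, apart from the largest bin of Dtna. With a library left out, no called result turned, and the ranges of these uncalled ones spanned 0. In HSA-LR against WT mice they were -0.06 to 0.07 for Sgcb, -0.10 to 0.30 for Dtna bin 12 and -0.02 to 0.13 for Dmd exon 71 in the gastrocnemius, and -0.17 to 0.10 for Utrn, -0.05 to 0.18 for Dtna, -0.09 to 0.08 for Sgcb, -0.52 to 0.46, -0.45 to 0.17 and -0.04 to 0.12 for Dmd exons 47, 48 and 71 in the quadriceps. On treatment they were -0.19 to 0.08 for Dag1 in the gastrocnemius, and -0.07 to 0.21 for Utrn, -0.01 to 0.45 for Sgcd and -0.10 to 0.10 for Dmd in the quadriceps. In treated against WT mice they were -0.22 to 0.02 for Utrn in the gastrocnemius, and -0.10 to 0.20 for Utrn, -0.16 to 0.07 for Dtna, -0.15 to 0.02 for Dag1 and -0.21 to 0.31 for Sntb1 in the quadriceps. The replicate number paired no samples across groups, with median correlations of -0.065 in the gastrocnemius and 0.058 in the quadriceps over 9 pairs. The block took the adjusted P of Dtna on treatment in the gastrocnemius to 0.155, of Sgca in the quadriceps to 0.112 and of Dmd exon 47 to 0.104, and left the other calls of members. With the mouse as a block, no member gene was called between the muscles. A log2 fold change within the SE of about 0.1 to 0.3 cannot be seen with 3 mice. Changes beyond 1 SE also went uncalled, such as -0.44 ± 0.15 for Dmd on treatment in the gastrocnemius. An uncalled gene is thus not shown to be unchanged.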
